A study of Homo sapiens with 9 samples.

Results

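The machinery that copies DNA was followed in Cal-27 cells, a human line of tongue squamous carcinoma cells, by RNA sequencing. The genes were 43 named replication and S-phase genes, taken by symbol from a table of 16366 genes. They, and the other gene lists below, were chosen with earlier results of these data known. Their counts beside those of all tested genes are therefore descriptions, not an independent test. All 43 were in the table, and all 43 had enough counts to be tested, as had 12470 genes in all. Wild-type cells, per the labels, had been kept for 48 h in co-culture with CAF exosomes, from cancer-associated fibroblasts, or with hOMF exosomes, or were the control, labelled NC, with 3 libraries in each group. The labels write the second exosome source both as hOMF and as hMOF and do not spell it out. They give neither the exosome dose nor what the control cells received. The 48 h are stated for the exosome groups only, and no time is given for the control cells. Exosomes are small vesicles that cells release. Nothing states that the libraries of a group came from separate cultures, so p-values measure the spread between these libraries, which may be technical.

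Replication begins when the origin recognition complex, CDC6 and CDT1 load rings of the MCM2-7 helicase onto origins, a step called licensing. In S phase the kinase CDC7 and further factors, among them CDC45 and the GINS complex, turn the ring into the active helicase, behind which primase, polymerases, the sliding clamp PCNA and its loader build the new strands. Many of these genes are transcribed under E2F factors as cells enter S phase, so their RNA is widely used as a sign of proliferation in squamous tumours.

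Replication genes were lower in cells given either kind of exosome than in control cells. With CAF exosomes 23 of the 43 genes fell and 0 rose, against 8.64% of all tested genes called lower and 9.51% called higher. With hOMF exosomes 28 fell and 0 rose, against 11.4% of all tested genes called lower and 11.8% called higher. A gene was called when its Benjamini-Hochberg adjusted p in edgeR's quasi-likelihood test was under 0.05 over all tested genes. The median log2 change of the 43 genes was -0.37 with CAF exosomes (range -0.76 to -0.08) and -0.46 with hOMF exosomes (range -1.23 to 0.02), while the median over all tested genes was -0.01 with CAF exosomes. For 27 of the 43 genes every CAF exosome library lay below every control library (18.2% of all tested genes), and for 29 every hOMF exosome library did (19.3% of all tested genes). Both comparisons use the same 3 control libraries. In bulk RNA a smaller share of cells in S phase and less of these RNAs per cell cannot be told apart.

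The calls rested in part on control replicate 3. Without it, 13 of the 43 genes fell with CAF exosomes (5.62% of all tested genes called lower) and 22 with hOMF exosomes (8.15% called lower). Leaving out another library also cost calls. Over all tested genes, 2264 were called with CAF exosomes, 1442 without control replicate 3 and 1343 without CAF exosome replicate 3. Expected counts summed to between 11185672 and 12779101 per library. On the first principal component over all tested genes (38.21% of the variance) the exosome libraries scored -17.32 to -8.61, and the control libraries 19.54, 22.03 and 30.88, with replicate 3 at the far end. All 12 keratinocyte and squamous carcinoma markers examined were expressed.

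**Figure D1:**
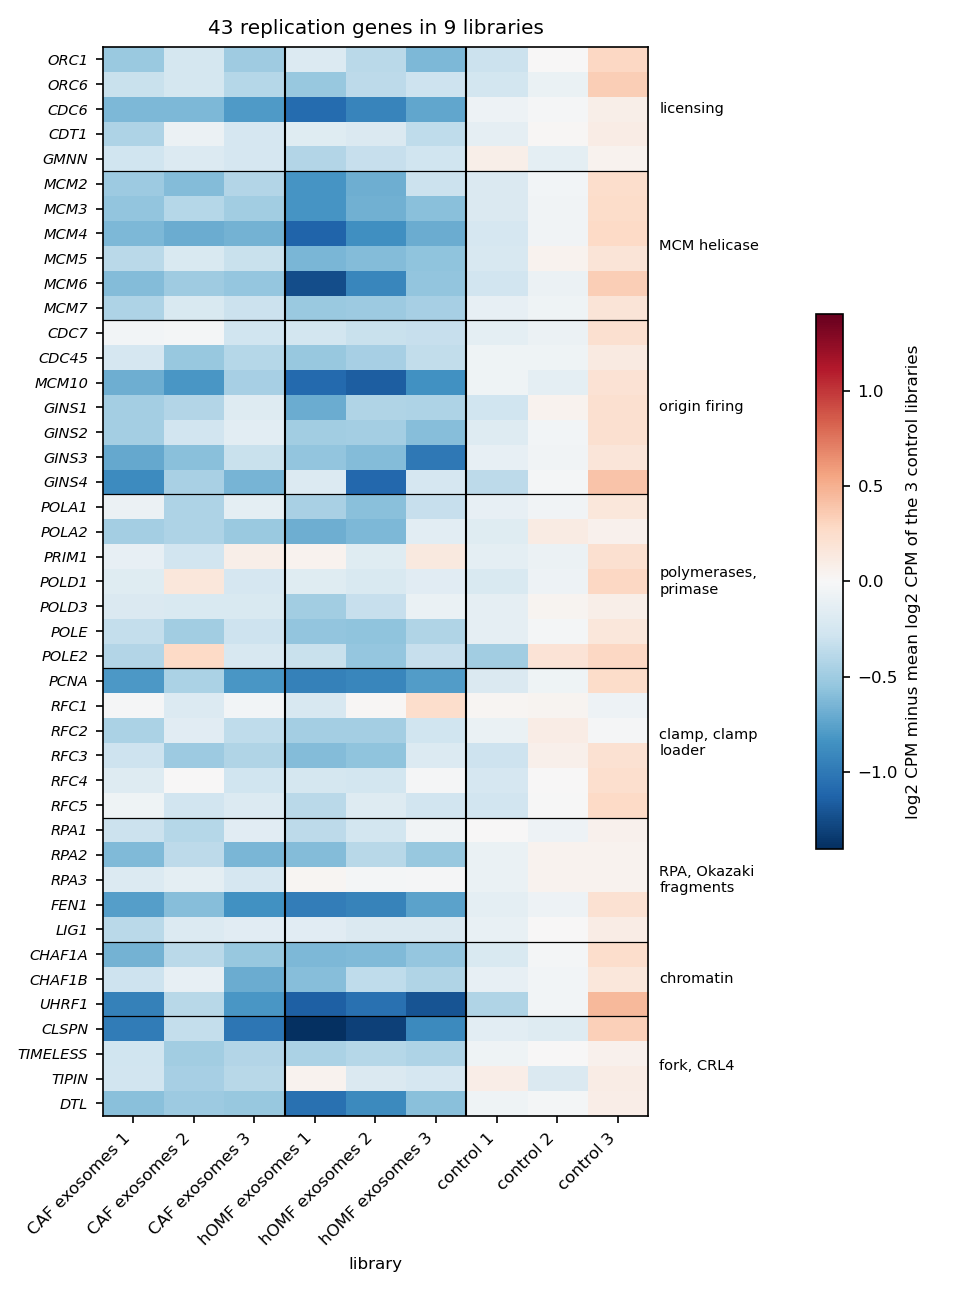
Level of each of the 43 replication genes (rows, grouped by role) in each of the 9 libraries (columns: CAF exosomes, hOMF exosomes, control), as log2 CPM minus the mean log2 CPM of the 3 control libraries, with blue below and red above that mean. Most exosome columns are blue, and control replicate 3 has the highest value of all 9 libraries for 37 genes.

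**Figure D2:**
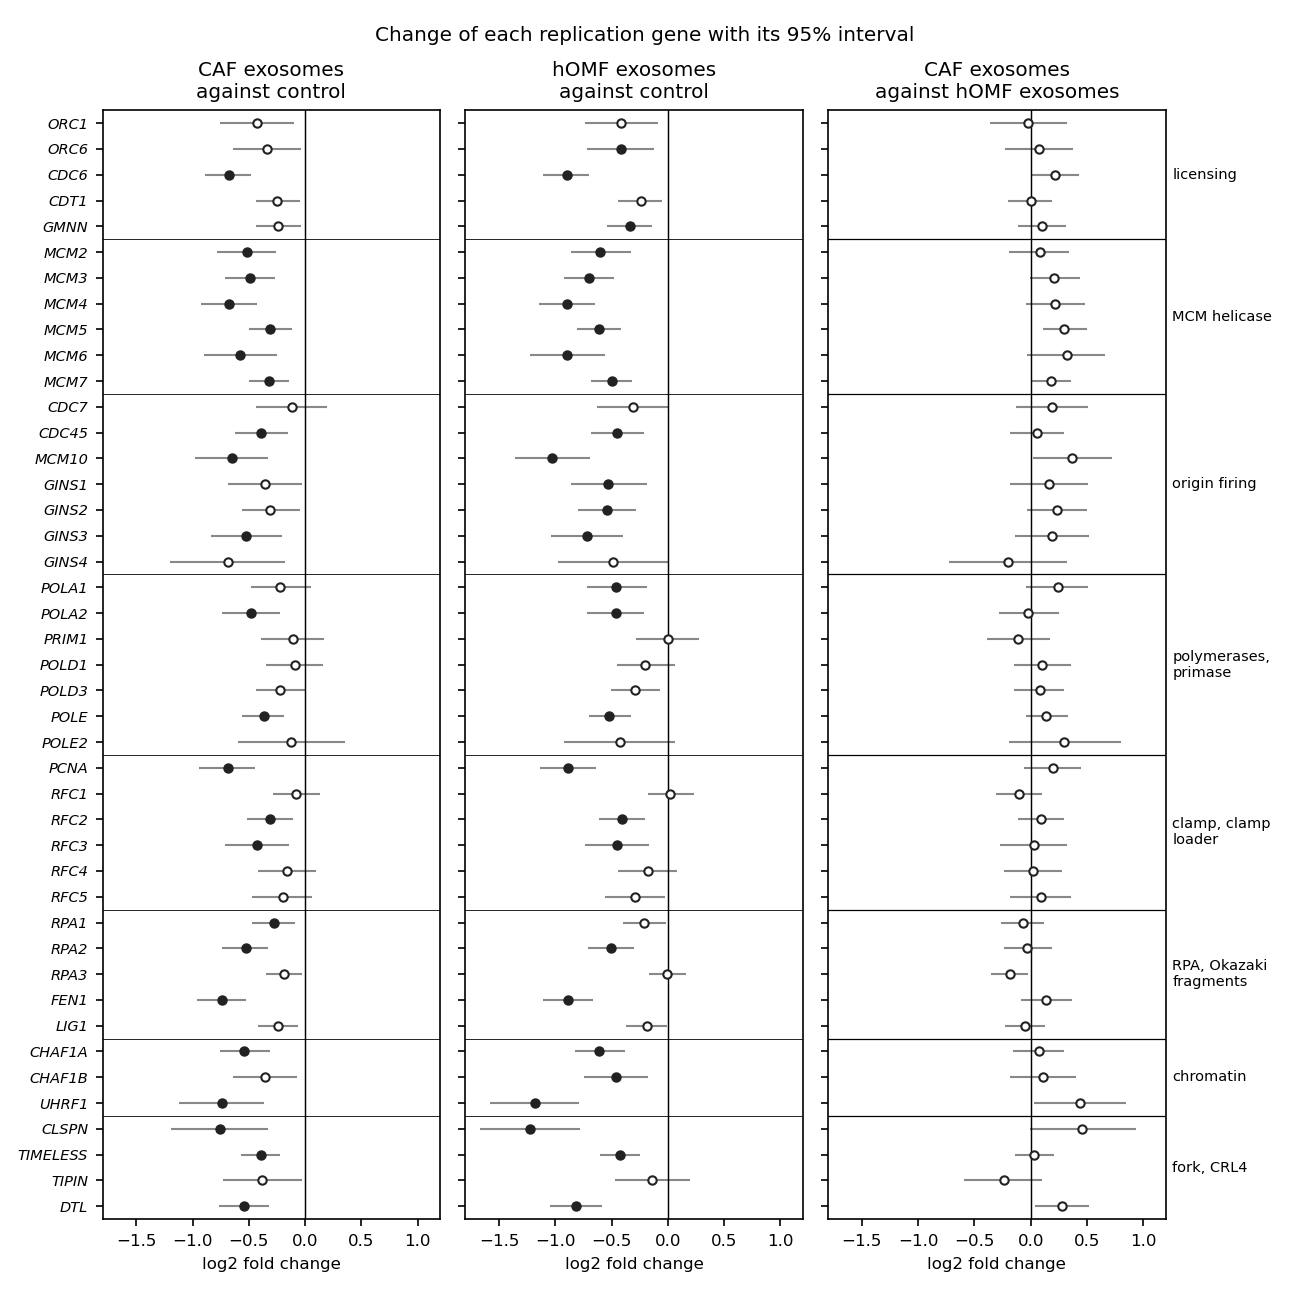
Log2 fold change of each gene (points) with its 95% interval (lines) for CAF exosomes against control, hOMF exosomes against control, and CAF against hOMF exosomes, with filled points for genes called at an adjusted p under 0.05. There are 23 filled points in the CAF panel, 28 in the hOMF panel and 0 in the panel that compares the exosomes.

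Promoter sequences were at hand for 37 of the 43 genes (RefSeq, GRCh38.p14, from 250 bases before to 50 after the transcript start). They were searched on both strands for 4 spellings of the E2F consensus, TTTCCCGC, TTTCGCGC, TTTGCCGC and TTTGGCGC. TTTCCCGC stood in 10 promoters, TTTGGCGC in 7, TTTCGCGC in 5 and TTTGCCGC in 0. At least 1 of these stood in 19 of the 37 promoters (51.4%), against 547 of 10202 promoters of tested genes (5.36%) and 908 of all 27305 promoters in the table (3.33%). CCAAT, the letters bound by factor NF-Y, stood in 23 of the 37 (62.2%), against 36.6% of the promoters of tested genes and 35.7% of all promoters. In 1 promoter an E2F match and a CCAAT match shared bases. Of the 19 genes with an E2F spelling 13 fell with CAF exosomes (median log2 change -0.48) and 16 with hOMF exosomes (median -0.54). Of the 18 genes without one 7 fell with CAF exosomes (median -0.32) and 9 with hOMF exosomes (median -0.38). Of all tested genes, 8.64% were called lower with CAF exosomes and 11.4% with hOMF exosomes. This split by spelling was not made over all tested genes, and the difference between genes with and without a spelling was not tested. These are descriptions of letters in a window, and no binding was measured. Shown are the 100 bases before the transcript start of the genes described below by library whose match lies there, with the E2F spelling in capitals:
POLE: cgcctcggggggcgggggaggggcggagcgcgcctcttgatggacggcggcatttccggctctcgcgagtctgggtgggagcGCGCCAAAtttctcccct
PCNA: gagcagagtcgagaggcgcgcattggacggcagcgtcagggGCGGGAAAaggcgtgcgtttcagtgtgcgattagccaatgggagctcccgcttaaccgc
UHRF1: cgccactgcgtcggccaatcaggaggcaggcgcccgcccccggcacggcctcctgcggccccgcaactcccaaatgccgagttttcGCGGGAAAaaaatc
DTL: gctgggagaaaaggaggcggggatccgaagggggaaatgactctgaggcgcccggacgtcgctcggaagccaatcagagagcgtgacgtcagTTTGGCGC
On GRCh38.p14 the stretch of POLE is chr12:132687343-132687442 on the minus strand, that of PCNA chr20:5126623-5126722 on the minus strand, that of UHRF1 chr19:4909401-4909500 on the plus strand and that of DTL chr1:212035648-212035747 on the plus strand. The capitals read as the reverse complement of a listed spelling in POLE, PCNA and UHRF1, and as the listed spelling TTTGGCGC in DTL. The stretches of PCNA, UHRF1 and DTL also hold ccaat or its reverse complement attgg in lower case.

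Of the 5 genes of origin recognition and licensing, 1 fell with CAF exosomes and 3 with hOMF exosomes. CDC6, the ATPase that helps to load the helicase, had 25.8, 25.8 and 22.9 CPM (counts scaled to library size) with CAF exosomes, 18.8, 21.0 and 24.1 CPM with hOMF exosomes, and 37.9, 39.4 and 42.2 CPM in control cells. Every exosome library was below every control library. CDC6 fell by 0.68 on the log2 scale with CAF exosomes (SE 0.096, adjusted p = 0.000278) and by 0.90 with hOMF exosomes (SE 0.097, adjusted p = 2.6e-05). ORC6, a subunit of the origin recognition complex, had 12.3, 12.9 and 11.6 CPM with CAF exosomes, 10.6, 11.8 and 12.5 CPM with hOMF exosomes, and 12.8, 14.3 and 19.4 CPM in control cells. The CAF and control libraries overlapped, the hOMF libraries lay just below the lowest control, and control replicate 3 stood above the other controls. ORC6 fell by 0.42 with hOMF exosomes (adjusted p = 0.0428), a call that ended without control replicate 3 (adjusted p = 0.26), and had a log2 change of -0.34 with CAF exosomes (adjusted p = 0.102). GMNN, which encodes geminin, the inhibitor of CDT1, fell by 0.34 with hOMF exosomes (adjusted p = 0.0175, and 0.062 without control replicate 3) and had -0.24 with CAF exosomes. ORC1, the ATPase subunit of the origin complex, and CDT1, the loading partner of CDC6, were called in neither comparison, with log2 changes of -0.43 and -0.25 with CAF exosomes.

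All 6 genes of the MCM2-7 helicase fell with both exosomes. The median log2 change of the 6 was -0.51 with CAF exosomes and -0.66 with hOMF exosomes. MCM4, a subunit of the ring, had 57.8, 55.2 and 56.2 CPM with CAF exosomes, 40.9, 49.0 and 55.1 CPM with hOMF exosomes, and 75.9, 86.5 and 108 CPM in control cells. No exosome library reached the lowest control library. It fell by 0.68 with CAF exosomes (SE 0.118, adjusted p = 0.00131) and by 0.90 with hOMF exosomes (SE 0.119, adjusted p = 0.000101). MCM5, another subunit of the ring, had 60.5, 67.5 and 63.4 CPM with CAF exosomes, 50.2, 51.6 and 53.2 CPM with hOMF exosomes, and 67.0, 81.2 and 88.8 CPM in control cells. The hOMF libraries lay below all others, while CAF exosome replicate 2 was just above control replicate 1. MCM5 fell by 0.31 with CAF exosomes (SE 0.091, adjusted p = 0.0283), a call that ended without control replicate 3 (log2 change -0.22, adjusted p = 0.138), and by 0.61 with hOMF exosomes (SE 0.092, adjusted p = 0.000283).

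The remaining ring subunits fell by 0.52 (MCM2), 0.49 (MCM3), 0.58 (MCM6) and 0.32 (MCM7) with CAF exosomes, and by 0.60, 0.70, 0.90 and 0.50 with hOMF exosomes, in the same order. Without control replicate 3, MCM6 (adjusted p = 0.0964) and MCM7 (adjusted p = 0.0836) were no longer called with CAF exosomes, MCM2 stayed near the threshold (adjusted p = 0.0488), and all 6 genes remained called with hOMF exosomes. Reads of MCM2 and MCM7 may include reads of TPRA1 and AP4M1, whose exons overlap theirs on the opposite strand. The sources used here do not say whether strand was used in counting. Libraries in which counts of MCM2 or MCM7 were not whole numbered 0. Although the protein ring holds its subunits in equal number, their RNA levels per transcript length differed. In TPM, which scales counts by transcript length and library size, MCM7 was the most abundant at 90.7 ± 5.10 with CAF exosomes, 81.9 ± 4.51 with hOMF exosomes and 109 ± 13.4 in control cells, and MCM6 the least at 9.34 ± 0.118, 7.63 ± 2.06 and 13.3 ± 3.11 in the same groups (SD, n = 3 each). MCM2, MCM3, MCM4 and MCM5 lay between 34.1 and 37.2 TPM in control cells and did not differ beyond their SD.

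**Figure D3:**
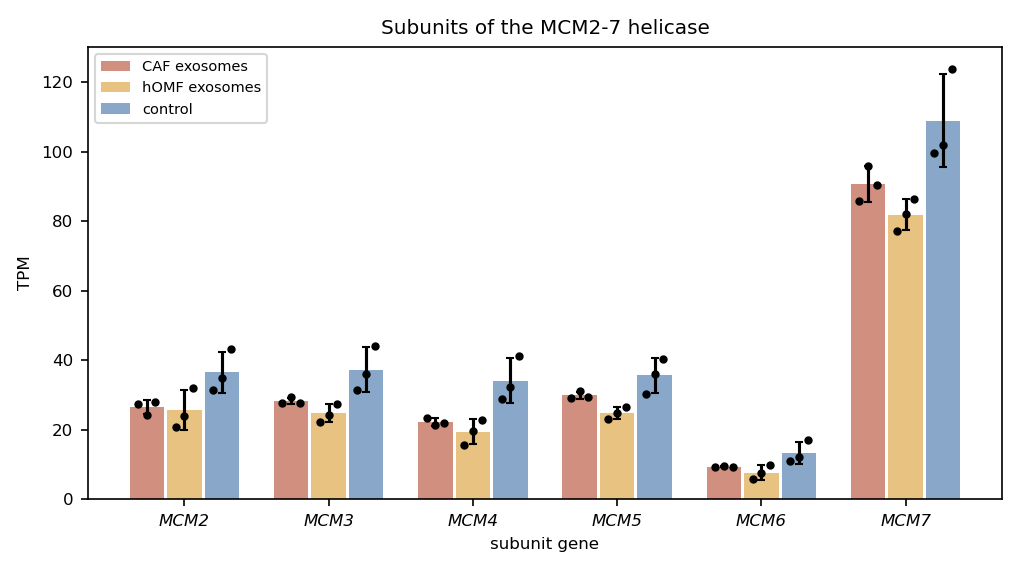
TPM of the 6 MCM2-7 subunit genes with CAF exosomes, with hOMF exosomes and in control cells (bars: mean, error bars: SD, dots: the 3 libraries of each group). MCM7 is the highest in every group (109 TPM in control cells) and MCM6 the lowest (13.3 TPM in control cells), and the control mean is the highest of the 3 groups for each gene.

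Of the 7 genes that turn the loaded ring into an active helicase, 3 fell with CAF exosomes and 5 with hOMF exosomes. MCM10, a factor needed to activate the helicase, had 6.06, 5.53 and 7.09 CPM with CAF exosomes, 4.60, 4.37 and 5.43 CPM with hOMF exosomes, and 9.36, 8.85 and 11.2 CPM in control cells. All exosome libraries were below all control libraries, and every hOMF library was below every CAF library. MCM10 fell by 0.65 with CAF exosomes (SE 0.153, adjusted p = 0.0084) and by 1.03 with hOMF exosomes (SE 0.158, adjusted p = 0.000327). CDC7, the kinase that phosphorylates the MCM ring, had 7.22, 7.23 and 6.09 CPM with CAF exosomes, 6.16, 5.95 and 5.89 CPM with hOMF exosomes, and 6.73, 6.96 and 8.61 CPM in control cells. Its CAF libraries lay on both sides of control replicates 1 and 2, and its hOMF libraries lay below the controls. CDC7 was called in neither comparison (log2 changes -0.12 with CAF exosomes, adjusted p = 0.596, and -0.31 with hOMF exosomes, adjusted p = 0.14).

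CDC45, which joins the ring as part of the active helicase, fell by 0.39 with CAF exosomes (adjusted p = 0.0238, and 0.101 without control replicate 3) and by 0.45 with hOMF exosomes (adjusted p = 0.00877). The 4 genes of the GINS complex, the other partner of the ring, differed in their calls. GINS3 fell in both comparisons, by 0.53 and 0.72, and its CAF call ended without control replicate 3 (adjusted p = 0.089). GINS1 and GINS2 fell with hOMF exosomes, by 0.53 and 0.54, and had log2 changes of -0.36 and -0.31 with CAF exosomes (adjusted p = 0.117 and 0.0909). GINS4, the scarcest of the 4 at 2.80 ± 0.745 TPM in control cells (SD, n = 3), was called in neither, although its change with CAF exosomes was -0.69 (95% interval -1.20 to -0.18, adjusted p = 0.0554). The exons of GINS2 overlap those of GSE1 on the opposite strand.

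Of the 7 polymerase and primase genes, 2 fell with CAF exosomes and 3 with hOMF exosomes. POLE, the catalytic subunit of the leading-strand polymerase epsilon, had 55.5, 50.0 and 57.4 CPM with CAF exosomes, 47.7, 47.2 and 52.3 CPM with hOMF exosomes, and 64.0, 68.7 and 78.0 CPM in control cells. The exosome libraries were all below the controls. POLE fell by 0.37 with CAF exosomes (SE 0.087, adjusted p = 0.00814) and by 0.52 with hOMF exosomes (SE 0.087, adjusted p = 0.00066). PRIM1, the catalytic subunit of primase, had 11.8, 10.6 and 13.5 CPM with CAF exosomes, 13.2, 11.4 and 14.1 CPM with hOMF exosomes, and 11.6, 12.1 and 14.9 CPM in control cells. All 3 groups overlapped, and the change was -0.11 with CAF exosomes (95% interval -0.39 to 0.17), while the interval with hOMF exosomes was -0.28 to 0.28. The exons of PRIM1 overlap those of HSD17B6 on the opposite strand.

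POLA2, the accessory subunit of polymerase alpha, fell by 0.48 with CAF exosomes (adjusted p = 0.0139) and by 0.46 with hOMF exosomes (adjusted p = 0.0125). Its hOMF replicate 3 (33.8 CPM) lay above control replicate 1 (33.1 CPM). Both calls ended without control replicate 2. The CAF call also ended without CAF replicate 3, and the hOMF call without hOMF replicate 1 or 2. POLA2 had counts in 3 libraries that were not whole. POLA1, the catalytic subunit of the same polymerase, fell by 0.46 with hOMF exosomes (adjusted p = 0.0175, and 0.0799 without control replicate 3) and had -0.22 with CAF exosomes (adjusted p = 0.236). POLD1 and POLD3, the catalytic and an accessory subunit of polymerase delta, and POLE2, an accessory subunit of polymerase epsilon, were called in neither comparison. Their log2 changes were -0.09, -0.22 and -0.13 with CAF exosomes and -0.20, -0.29 and -0.43 with hOMF exosomes, in that order of genes. POLD1 had a positive estimate (0.07) with CAF exosomes without control replicate 3.

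Of the 6 genes of the clamp and its loader, 3 fell with CAF exosomes and the same 3 with hOMF exosomes. PCNA, the sliding clamp that holds polymerases on DNA, had 42.5, 54.5 and 42.1 CPM with CAF exosomes, 38.5, 39.5 and 43.1 CPM with hOMF exosomes, and 64.7, 71.1 and 88.8 CPM in control cells. The exosome libraries all lay below the controls, with CAF replicate 2 the nearest. PCNA fell by 0.69 with CAF exosomes (SE 0.116, adjusted p = 0.00104) and by 0.89 with hOMF exosomes (SE 0.118, adjusted p = 0.000101). Of the 5 loader genes, RFC2 and RFC3, small subunits, fell in both comparisons, by 0.31 and 0.43 with CAF exosomes and by 0.41 and 0.45 with hOMF exosomes. Without control replicate 3, RFC3 was called in neither comparison (adjusted p = 0.169 and 0.115), and RFC2 was called with hOMF exosomes only (adjusted p = 0.0657 with CAF and 0.0169 with hOMF exosomes). RFC1, the large subunit, had 67.5, 59.9 and 66.6 CPM with CAF exosomes, 58.5, 69.0 and 80.9 CPM with hOMF exosomes, and 69.8, 70.1 and 65.3 CPM in control cells. These groups overlapped, and the highest library was hOMF replicate 3. Its log2 change was -0.08 with CAF exosomes (95% interval -0.29 to 0.13) and 0.02 with hOMF exosomes (95% interval -0.18 to 0.23). RFC4 and RFC5, the other small subunits, were not called, with -0.16 and -0.20 with CAF exosomes and -0.18 and -0.29 with hOMF exosomes. The exons of RFC4 overlap those of EIF4A2 on the opposite strand, and RFC2 had counts in 6 libraries that were not whole, so some of its reads were shared with other genes.

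Of the 5 genes for single-strand binding and the joining of Okazaki fragments, 3 fell with CAF exosomes and 2 with hOMF exosomes. FEN1, the nuclease that trims the flaps of Okazaki fragments, had 25.9, 29.1 and 24.6 CPM with CAF exosomes, 22.6, 23.1 and 26.2 CPM with hOMF exosomes, and 40.2, 41.9 and 51.0 CPM in control cells. No exosome library came near the lowest control. FEN1 fell by 0.74 with CAF exosomes (SE 0.104, adjusted p = 0.000253), the smallest p of the 43 genes in that comparison, and by 0.89 with hOMF exosomes (SE 0.104, adjusted p = 4.07e-05). Exons of FADS2 on the same strand and of TMEM258 on the opposite strand overlap those of FEN1. Its count may therefore hold reads of these genes, although libraries in which its counts were not whole numbered 0. RPA3, the smallest subunit of the single-strand binding protein RPA, had 33.1, 34.4 and 32.3 CPM with CAF exosomes, 38.7, 37.1 and 37.6 CPM with hOMF exosomes, and 35.5, 39.2 and 39.1 CPM in control cells. Its CAF libraries were below all others, while the hOMF libraries lay within the range of the controls. RPA3 was called in neither comparison (log2 changes -0.19, adjusted p = 0.0991, and -0.01, adjusted p = 0.969), and its exons overlap those of UMAD1 on the opposite strand. RPA2, the middle subunit, fell by 0.53 and 0.51 with CAF and hOMF exosomes. RPA1, the large subunit, fell by 0.28 with CAF exosomes (adjusted p = 0.0397, and 0.122 without control replicate 3) and had -0.21 with hOMF exosomes (adjusted p = 0.0945). LIG1, the ligase that seals Okazaki fragments, was not called, with -0.24 and -0.19.

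Of the 3 genes that restore chromatin and DNA methylation behind the fork, 2 fell with CAF exosomes and 3 with hOMF exosomes. CHAF1A, the large subunit of chromatin assembly factor 1, had 32.2, 39.2 and 35.3 CPM with CAF exosomes, 33.1, 33.2 and 35.2 CPM with hOMF exosomes, and 43.9, 50.1 and 60.5 CPM in control cells. The exosome libraries were below the controls without overlap. It fell by 0.54 with CAF exosomes (SE 0.107, adjusted p = 0.00338) and by 0.61 with hOMF exosomes (SE 0.107, adjusted p = 0.000949). UHRF1, which reads hemimethylated DNA and guides the maintenance methyltransferase, had 15.0, 22.0 and 16.4 CPM with CAF exosomes, 13.0, 14.0 and 12.5 CPM with hOMF exosomes, and 21.5, 28.1 and 39.6 CPM in control cells. CAF replicate 2 overlapped control replicate 1, and the controls differed widely among themselves. UHRF1 fell by 0.74 with CAF exosomes (SE 0.178, adjusted p = 0.00988), a call that ended without control replicate 3 (adjusted p = 0.0513), and by 1.18 with hOMF exosomes (SE 0.184, adjusted p = 0.000378). CHAF1B, the middle subunit of the assembly factor, had 16.3, 18.5 and 12.3 CPM with CAF exosomes, 13.2, 15.6 and 14.9 CPM with hOMF exosomes, and 18.4, 19.4 and 22.3 CPM in control cells. Its CAF libraries reached the lowest control and its hOMF libraries did not. CHAF1B fell by 0.46 with hOMF exosomes (SE 0.134, adjusted p = 0.0209, and 0.0886 without control replicate 3) and had -0.36 with CAF exosomes (adjusted p = 0.0741).

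Of 4 genes of the fork and its surveillance, the same 3 fell in both comparisons. DTL, the receptor that brings CDT1 to the CRL4 ubiquitin ligase in S phase, had 17.6, 18.5 and 18.3 CPM with CAF exosomes, 12.8, 14.2 and 17.6 CPM with hOMF exosomes, and 25.2, 25.9 and 28.0 CPM in control cells. The groups given exosomes stayed below the controls, and hOMF replicate 3 matched the lowest CAF library. DTL fell by 0.54 with CAF exosomes (SE 0.107, adjusted p = 0.00315) and by 0.82 with hOMF exosomes (SE 0.109, adjusted p = 0.000105). TIPIN, the partner of TIMELESS in the complex that steadies stalled forks, had 5.17, 4.51 and 4.76 CPM with CAF exosomes, 6.42, 5.42 and 5.27 CPM with hOMF exosomes, and 6.64, 5.42 and 6.70 CPM in control cells. Its CAF libraries were the lowest, and its hOMF and control libraries overlapped. TIPIN was called in neither comparison (log2 changes -0.38, adjusted p = 0.117, and -0.14, adjusted p = 0.573). TIMELESS fell by 0.39 and 0.43 with CAF and hOMF exosomes. CLSPN, which encodes claspin, the mediator of the checkpoint kinase CHK1, had the largest estimates of the 43 genes, with falls of 0.76 with CAF exosomes (SE 0.202, adjusted p = 0.0167, and 0.0814 without control replicate 3) and 1.23 with hOMF exosomes (SE 0.211, adjusted p = 0.000771). It was also among the scarcest, at 1.56 ± 0.384, 1.27 ± 0.363 and 2.77 ± 0.603 TPM in CAF, hOMF and control libraries (SD, n = 3 each).

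CAF exosomes and hOMF exosomes were then set against each other, to ask whether exosomes of tumour-associated fibroblasts act differently on these genes. None of the 43 genes was called by edgeR (6 had an unadjusted p under 0.05, and the other methods run, DESeq2 and limma among them, also called 0), and 2 of all tested genes were called in either direction (0.016%). The smallest adjusted p of the 43 genes was 0.395, for MCM5, with a log2 difference of 0.30 (95% interval 0.11 to 0.50). The median difference was 0.10, and 32 of 43 estimates were higher with CAF than with hOMF exosomes. For 6 genes every CAF library was above every hOMF library (MCM3, MCM4, MCM5, MCM7, MCM10 and UHRF1; 7.15% of all tested genes), and for 2 genes every CAF library was below (RPA3 and TIPIN; 6.59% of all tested genes). Over the 43 genes the lowest interval bound was -0.73 (GINS4) and the highest 0.94. Differences of that size are not excluded for the genes those bounds belong to. Other intervals were narrower, such as -0.20 to 0.19 for CDT1 and -0.11 to 0.31 for GMNN. Between the comparisons with control, 22 genes were called in both, 1 with CAF exosomes only (RPA1), 6 with hOMF exosomes only (ORC6, GMNN, GINS1, GINS2, POLA1 and CHAF1B) and 14 in neither, and these differences in calls were not called themselves.

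Control replicate 3 carried the highest level of most of these genes. It was the highest of all 9 libraries for 37 of the 43 genes (17.5% of all tested genes). Some control library was the highest for 42, a count that was not made over all tested genes. Its log2 CPM exceeded the mean of control replicates 1 and 2 by a median of 0.29 over the 43 genes and by -0.01 over all tested genes, and 41 of the 43 lay above that mean (48.7% of all tested genes). The excess was 0.69 for UHRF1, 0.58 for GINS4 and 0.52 for both MCM6 and ORC6, whereas RFC1 had -0.10 and RFC2 -0.03. The summed level of the 43 genes was 1200, 1280 and 1230 CPM with CAF exosomes, 1090, 1140 and 1230 CPM with hOMF exosomes, and 1460, 1590 and 1820 CPM in control replicates 1, 2 and 3. The other controls also stood above every exosome library in the sum. Control replicate 3 had 12605427 expected counts, more than the other controls (11277837 and 11386378). Its 12 keratinocyte markers summed to 5160 CPM, against 6670 and 5960 CPM in control replicates 1 and 2. What part depth or cell state had in its level was not tested.

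Without control replicate 3 the median log2 change of the 43 genes was -0.29 with CAF exosomes and -0.39 with hOMF exosomes, and 0 genes rose. The 13 genes still called with CAF exosomes were CDC6, MCM2, MCM3, MCM4, MCM10, POLE, POLA2, PCNA, RPA2, FEN1, CHAF1A, TIMELESS and DTL, and all of these except POLA2 were called under each of the 22 alternative settings run for that comparison. The 10 that lost their call were MCM5, MCM6, MCM7, CDC45, GINS3, RFC2, RFC3, RPA1, UHRF1 and CLSPN. With hOMF exosomes 6 lost it (ORC6, GMNN, GINS1, POLA1, RFC3 and CHAF1B), and 21 genes were called under all 22 settings. Leaving out CAF exosome replicate 3 instead left 14 genes called with CAF exosomes.

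**Figure D4:**
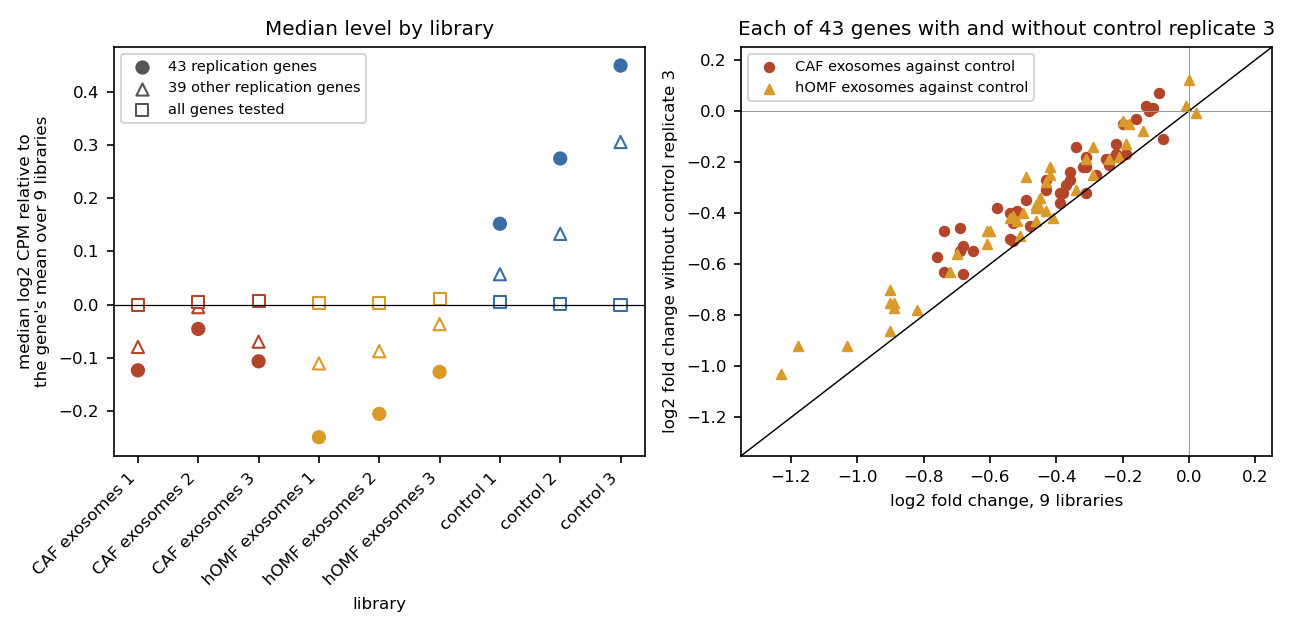
Left, median log2 CPM of the 43 replication genes (filled circles), 39 other replication genes (triangles) and all tested genes (squares) in each library, relative to each gene's mean over the 9 libraries; right, log2 fold change of each of the 43 genes from 9 libraries (horizontal) and without control replicate 3 (vertical), with the line of equality. The median of the 43 genes is 0.45 in control replicate 3, against 0.152 and 0.275 in the other controls and -0.25 to -0.046 in the exosome libraries, and most points on the right lie above the line.

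Other genes of replication were counted in the same way. Of 39 further replication genes, 12 fell and 1 rose with CAF exosomes (median log2 change -0.21), and 15 fell and 1 rose with hOMF exosomes (median -0.25). Of all tested genes 8.64% were called lower and 9.51% higher with CAF exosomes, and 11.4% lower and 11.8% higher with hOMF exosomes. Without control replicate 3, 6 fell with CAF exosomes (5.62% of all tested genes called lower) and 8 with hOMF exosomes (8.15% called lower). ASF1B, a histone chaperone that works with chromatin assembly factor 1, had 32.3, 40.0 and 34.2 CPM with CAF exosomes, 31.3, 34.4 and 31.6 CPM with hOMF exosomes, and 51.2, 58.7 and 58.5 CPM in control cells, without overlap between exosome and control libraries. It fell by 0.66 (adjusted p = 0.000241) with CAF and by 0.79 (adjusted p = 3.71e-05) with hOMF exosomes. PCLAF, a partner of PCNA, fell by 0.52 with CAF exosomes (adjusted p = 0.0018) and by 0.30 with hOMF exosomes (adjusted p = 0.0282, and 0.129 without control replicate 3). At the other end, RNASEH2B, a subunit of the ribonuclease that removes ribonucleotides from DNA, had -0.02 and -0.10, and TRAIP, a ubiquitin ligase of the replication fork, had -0.13 and -0.28, with no call in either comparison. The gene that rose in both comparisons was POLD4, the smallest subunit of polymerase delta, by 0.30 with CAF exosomes (adjusted p = 0.0465, and 0.104 without control replicate 3) and by 0.42 with hOMF exosomes (adjusted p = 0.00759); it is named after its values were seen.

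Regulators of entry into S phase and enzymes of nucleotide supply were also counted. The 11 regulators were activators and repressors alike: E2F1, E2F2, E2F3, E2F7, E2F8, the E2F partner TFDP1, CCNE1, CCNE2, MYBL2, and RB1 and RBL1 of the retinoblastoma family, which restrains E2F factors. Of these 6 fell with CAF exosomes (E2F1, E2F7, TFDP1, CCNE2, MYBL2 and RB1) and 9 with hOMF exosomes (the same 6 with E2F2, CCNE1 and RBL1). Of all tested genes 8.64% and 11.4% were called lower. Without control replicate 3 the counts were 5 and 6, against 5.62% and 8.15% of all tested genes. E2F1 then lost its CAF call (adjusted p = 0.144), and CCNE1 and RBL1 lost their hOMF calls (adjusted p = 0.201 and 0.0889). E2F3, an activator, was called in neither comparison, with log2 changes of -0.14 (adjusted p = 0.374) with CAF exosomes and -0.05 (adjusted p = 0.781) with hOMF exosomes. The repressors differed in their calls: E2F7 fell by 0.50 with CAF exosomes and by 0.71 with hOMF exosomes, and E2F8 was not called (-0.53 and -0.54). RB1 fell by 0.34 with CAF exosomes and by 0.28 with hOMF exosomes, the second call ending without control replicate 3 (adjusted p = 0.06); apart from CCNE2 and MYBL2, these regulators are named after their values were seen. CCNE2, cyclin E2, which drives entry into S phase, fell by 1.54 with CAF exosomes and fell by 1.85 with hOMF exosomes. MYBL2, a transcription factor of cycling cells, fell by 0.78 with CAF exosomes and fell by 0.88 with hOMF exosomes. Of 8 nucleotide supply genes 5 fell in each comparison (8.64% and 11.4% of all tested genes). Without control replicate 3, 3 of the 8 fell with CAF exosomes and 4 with hOMF exosomes (5.62% and 8.15% of all tested genes). RRM2, the regulatory subunit of ribonucleotide reductase, fell by 0.88 and 0.98 with CAF and hOMF exosomes, and TK1, thymidine kinase, fell by 0.45 and 0.47.

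Markers of other cell types were examined beside the replication genes. The 4 tested fibroblast markers together had 48.5 to 51.2 CPM with CAF exosomes, 46.2 to 57.1 CPM with hOMF exosomes and 37.9 to 43.8 CPM in control cells. COL1A1, a chain of type I collagen, made up most of that sum, with 42.1 to 44.1 CPM with CAF exosomes, 39.4 to 50.5 CPM with hOMF exosomes and 33.2 to 39.4 CPM in control cells. It was called in neither comparison (log2 change 0.22 in each, adjusted p = 0.138 and 0.124), nor were COL1A2, the other chain (0.09 and 0.26), and PDGFRB, a growth factor receptor (0.62 and 0.70). LUM, which encodes the matrix protein lumican, rose by 1.06 with CAF exosomes and by 0.94 with hOMF exosomes, to at most 3.32 CPM. Of the rest of the 10 markers, COL3A1, DCN, THY1, FAP and POSTN had 2, 3, 6, 3 and 1 counts in all over the 9 libraries. PDGFRA was not among the genes with deposited values. The 3 tested leukocyte markers of 8 summed to 39.7 to 45.3 CPM with CAF exosomes, 38.1 to 42.8 CPM with hOMF exosomes and 39.1 to 41.6 CPM in control cells, and ITGAM, an integrin of myeloid cells, fell by 0.98 with hOMF exosomes. The 12 keratinocyte markers summed to 7260 to 7330 CPM with CAF exosomes, 6150 to 6890 CPM with hOMF exosomes and 5160 to 6670 CPM in control cells. Of the 12, 5 rose with CAF exosomes (9.51% of all tested genes called higher) and 2 with hOMF exosomes (11.8% called higher). With hOMF exosomes 4 of the 12 estimates were below 0. Without control replicate 3, 3 rose with CAF exosomes, and 1 rose and 1 fell with hOMF exosomes. The gene that fell was PERP (adjusted p = 0.0229). Of 12466 genes tested in that fit, 741 were called higher with CAF exosomes, and 996 higher and 1016 lower with hOMF exosomes. KRT5, a keratin of basal cells, rose by 0.72 with CAF exosomes and by 0.51 with hOMF exosomes. Their part in the lower replication genes was not tested.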

How the data were processed

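Poly(A) RNA of 9 libraries was sequenced with dUTP strand marking, per the labels' protocols. The authors deposited expected counts, FPKM and TPM for each library and gene. They were made with Bowtie2 2.2.5 and RSEM 1.2.8, per the submitters' processing notes. The notes name a mouse build, yet symbols are human, so the authors' build is unclear and no coordinates come from their table. The deposited FPKM values are scaled by transcript length and depth, and the deposited TPM values to a common sum. Of the values of a library 90.5% to 92.0% were whole within 0.001, and expected counts were rounded before testing. 0 columns of values were left without a sample.

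Genes were kept by filterByExpr (minimum count 10, minimum total 15). The test was edgeR's quasi-likelihood test (glmQLFit, glmQLFTest, two-sided) on all 9 libraries with TMM scaling, the group as the only term and 6 residual degrees of freedom, adjusted over 12470 genes with a threshold of 0.05. CPM are TMM scaled. SE values come from the F statistic, and intervals cover 95%. The script was tested on simulated counts. The members and lists were chosen with earlier results of these data known. Values by library are given, in each role, for the genes with the smallest p in each comparison with control and for the gene with the largest p. Overlapping exons come from GENCODE release 29. The 22 alternatives per comparison comprised DESeq2, limma-voom, limma on log2(FPKM + 1) and log2(FPKM + 0.1), other scalings and filters, a 2-group fit, a correction for GC content and length, blocks and each library left out. Software was edgeR 4.0.16, DESeq2 1.42.0 and limma 3.58.1 under R 4.3.3, and pandas 2.3.3 and matplotlib 3.10.9 under python 3.11.15.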

Additional observations from a re-analysis of the deposited data

How the results depend on the processing

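No estimate of a called gene changed sign under any of the 22 alternatives. With CAF exosomes, 23 genes were lower with 9 libraries and between 13 and 27 with 1 library left out, 13 without control replicate 3 and 14 without CAF exosome replicate 3. With hOMF exosomes, 28 were lower with 9 libraries and between 22 and 31 with 1 library left out. The median log2 change was -0.26 with CAF exosomes and -0.32 with hOMF exosomes in limma on log2(FPKM + 1), against -0.37 and -0.46 in edgeR; the cause was not tested. With the window cut to the 250 bases before the start, 35.1% of the genes' promoters held an E2F spelling, against 51.4% in the longer window. Over all genes, calls with CAF exosomes numbered 2264, and 1343 without CAF replicate 3, 1389 without control replicate 2 and 1442 without control replicate 3. With hOMF exosomes they numbered 2896, and 1695 without hOMF replicate 2. CAF against hOMF exosomes gave 2 calls, and 0 to 36 under the alternatives, the most with DESeq2. Deviations from the group mean had correlations of -0.12 to 0.12 between same-numbered libraries and of -0.141 to 0.153 between differently numbered ones. Such correlations cannot show whether same-numbered libraries shared a culture. A fit with a replicate block left 23 genes lower with CAF exosomes and 29 with hOMF exosomes. With 3 libraries a group and 11185672 to 12779101 counts each, genes near 5 CPM such as GINS4 and POLE2 have intervals about 1 log2 unit wide.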
